A study of Rattus norvegicus with 29 samples.

Results

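Acetylcholine in the nucleus accumbens shell is described here through 10 genes: the muscarinic receptors Chrm1, Chrm2, Chrm3 and Chrm4, the nicotinic receptor subunits Chrna4, Chrna7 and Chrnb2, and Chat, Slc18a3 and Ache, which make, package and break down the transmitter. The members were taken as every probe set whose symbol in the platform's probe table was exactly 1 of these names. By that rule 9 of the 10 genes had a probe set, with 10 probe sets among the 20826 that carried 1 gene symbol and stood for 14217 genes. Ache, the acetylcholine-degrading enzyme, had no probe set under that symbol in the table used here and was not analysed. Chrm3 had 2 probe sets, which are given apart as the brighter and the dimmer.

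Expression was measured on 29 Affymetrix rat arrays in tissue of the accumbens shell from P rats, a line bred for high voluntary alcohol intake. The groups were water only (9 arrays), limited ethanol (10 arrays) and continuous ethanol (10 arrays). The labels give no age, dose, hours of access or length of drinking, so limited and continuous are used as names only. The series' design names 10 samples a group, whereas 9 water arrays were available here and all of them were used. Whether a sample was 1 animal is not in the labels, and the p-values therefore reflect only how much these samples varied, which may be technical variation.

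Acetylcholine in the accumbens comes mainly from a sparse class of large, tonically active interneurons. These cells synthesise it with Chat from choline taken up by Slc5a7, and load it into vesicles with the transporter encoded by Slc18a3, a gene nested within the Chat gene. The transmitter acts on G-protein-coupled muscarinic receptors, some of which couple to Gq (Chrm1, Chrm3) and others to Gi (Chrm2, Chrm4), and on nicotinic channels, which on dopamine terminals gate local dopamine release.

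None of the members differed between the groups by the test used, and in all 3 comparisons the groups overlapped for each of the 10 probe sets. The same overlap was present for all 32 other cholinergic genes tested, and its share over all probe sets was not counted. The pattern that did stand out was among arrays of the same group, where Chat, Slc18a3 and Slc5a7 rose and fell together. The starts of these 3 genes are shown because of that shared pattern. Each is 300 bases in RefSeq's GRCr8 rat assembly, from 250 before to 50 after the annotated start, on the minus strand. They lie at chr16:7723367-7723666 for Chat, chr16:7722765-7723064 for Slc18a3 and chr9:7953460-7953759 for Slc5a7. Capitals mark TAAT (a core recognised by homeodomain factors), GGGCGG (the GC box) and TGACGTCA (the cyclic AMP response element) on either strand, and no capitals overlap.
Chat: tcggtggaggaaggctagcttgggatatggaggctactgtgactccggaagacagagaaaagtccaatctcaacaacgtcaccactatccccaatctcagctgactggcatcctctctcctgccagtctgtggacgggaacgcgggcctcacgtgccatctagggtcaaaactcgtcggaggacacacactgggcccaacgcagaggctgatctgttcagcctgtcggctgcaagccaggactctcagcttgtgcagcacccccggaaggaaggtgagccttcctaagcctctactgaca
Slc18a3: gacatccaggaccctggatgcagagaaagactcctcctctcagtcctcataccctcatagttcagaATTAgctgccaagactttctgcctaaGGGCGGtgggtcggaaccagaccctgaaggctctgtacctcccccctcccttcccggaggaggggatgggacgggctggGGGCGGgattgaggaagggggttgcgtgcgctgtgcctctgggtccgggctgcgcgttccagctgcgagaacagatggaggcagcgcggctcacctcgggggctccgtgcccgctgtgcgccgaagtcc
Slc5a7: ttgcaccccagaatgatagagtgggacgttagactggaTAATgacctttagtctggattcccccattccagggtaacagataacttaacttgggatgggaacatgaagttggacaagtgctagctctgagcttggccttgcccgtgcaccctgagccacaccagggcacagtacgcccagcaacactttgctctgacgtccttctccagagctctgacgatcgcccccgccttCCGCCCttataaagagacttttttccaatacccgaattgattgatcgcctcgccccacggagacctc
The annotated starts of Chat and Slc18a3 are 602 bases apart, with that of Slc18a3 downstream. TAAT had 0 matches in the Chat window, 1 in that of Slc18a3 and 1 in that of Slc5a7, against 60.6% of all 33469 rat promoter windows with at least 1 match. GGGCGG had 0, 2 and 1 matches in the same order, against 33.1% of windows with 1 or more. TGACGTCA matched in none of the 3 windows and in 1.83% of all. The E-box CANNTG, left in lower case and clear of the other motifs, had 2, 2 and 1 matches and was in 72.1% of windows. A match describes these letters only, and the motifs were chosen after the expression values were seen.

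Values below are log2 expression after RMA (robust multi-array average), in which the arrays were brought to nearly the same distribution. Array medians lay between 8.17 and 8.21, and the correlation of any pair of arrays lay between 0.986 and 0.998. Water replicates 2, 5 and 6 and limited replicates 6 and 7 (5 arrays) stood apart on the second principal component, which held 16.5% of the variance. They were set apart at the largest gap between the scores, a rule that always sets some arrays apart. Several results are given with and without them. The tissue label could be set against markers of medium spiny neurons, the main accumbens cell: 9 of 10 had a probe set, and all 9 passed the level filter, with mean levels from 9.96 to 13.54. Cortical markers were also present, with 6 of 7 on the array and mean levels from 7.12 for Tbr1 to 12.48 for Lamp5. Scanner files were not used here, so no array batch was known.

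Probe sets in the dimmest 30 percent of the table (a mean at or below 6.86) were left out, and 21731 probe sets were tested. Of the members 6 probe sets passed, 1 each for Chat, Slc18a3, Chrm4, Chrna4 and Chrna7 and the brighter of Chrm3. Chrm1, Chrm2, Chrnb2 and the dimmer Chrm3 probe set did not, and were described from a fit without the filter. Genes of liver, pancreas, muscle and other tissues were read as a guide to dim values, and 18 of their 21 probe sets were below the same level. The others were Apoh at 6.97 and the probe sets of the liver gene Alb at 10.27 and 9.58. Both Alb values were above the mean of Chat (9.37), the brightest member, so a level above the filter does not by itself show a transcript of accumbens cells.

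Between continuous ethanol and water, limma called 0 of the 6 member probe sets at an adjusted p of 0.05, against 0.152% of all tested probe sets (33 of 21731). At an unadjusted p under 0.05 it again found 0 of 6, where 16.1% of tested probe sets passed. The differences ran from -0.11 to 0.11, with a median of -0.00 beside 0.00 over all tested probe sets, and the smallest adjusted p was 0.336. Between limited ethanol and water 0 of 6 were called, against 0% of all tested probe sets, and 0 of 6 had an unadjusted p under 0.05, against 4.44%. Those differences ran from -0.08 to 0.22, with a median of 0.05 beside 0.00 over all, and the smallest adjusted p was 0.972. Between limited and continuous ethanol 0 of 6 were called, against 0.00460% of all (1 probe set), and 0 of 6 had an unadjusted p under 0.05, against 9.31%. Here the differences ran from -0.06 to 0.13, with a median of 0.02 beside -0.01 over all. The test for any difference among the 3 groups called 0 of 6, against 0.0828% of all. Without the level filter 0 of 10 member probe sets were called in each comparison, against 33, 0 and 1 of all 31042 probe sets in the same order of comparisons. In that fit 0 of 10 had an unadjusted p under 0.05, a share not counted there over all probe sets. A missed threshold does not show equal levels, so differences are given below with their 95% confidence intervals.

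**Figure D1:**
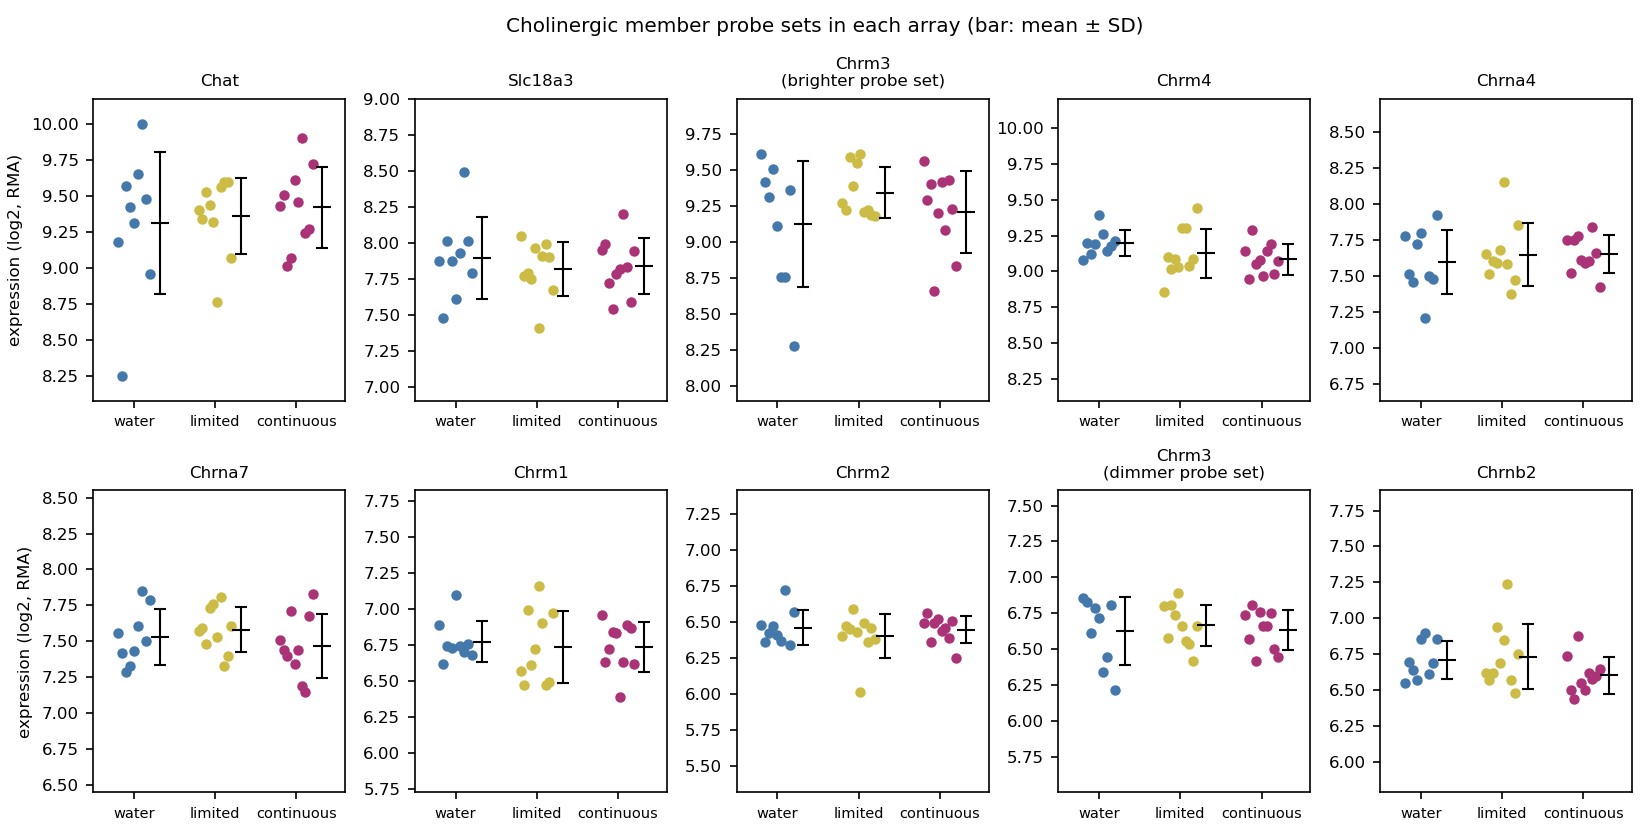
Each panel shows 1 member probe set, with log2 RMA expression on the y axis and the 3 groups on the x axis; every point is 1 array and the bar gives the mean and SD. All panels span the same number of log2 units. The points of the groups overlap in every panel, and Chat shows a single low water array at 8.25 and a high one at 10.00.

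Chat, choline acetyltransferase, is the enzyme that defines cholinergic neurons. Its probe set read 8.25 at the lowest, 9.42 at the median and 10.00 at the highest of the water arrays. Limited ethanol arrays ran from 8.76 through a median of 9.42 to 9.60, and continuous ethanol arrays from 9.01 through 9.44 to 9.90. The water arrays thus enclosed every value of both ethanol groups, and the medians were nearly the same. The group means were 9.31 ± 0.49 (SD, n = 9), 9.36 ± 0.27 (SD, n = 10) and 9.42 ± 0.28 (SD, n = 10). Continuous ethanol minus water was 0.11 ± 0.15 (SE; interval -0.21 to 0.42; adjusted p = 0.755). Limited ethanol minus water was 0.05 (interval -0.27 to 0.36; adjusted p = 0.988), and limited minus continuous was -0.06 (interval -0.37 to 0.25; adjusted p = 0.933). Neither difference from water kept its sign without water replicate 2, the array at 8.25: they became -0.02 and -0.08. In bulk tissue, fewer cholinergic cells and less Chat RNA in each cannot be told apart.

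Slc18a3 encodes the vesicular acetylcholine transporter. Water arrays ran from 7.48 through a median of 7.87 to 8.49, limited ethanol arrays from 7.41 through 7.84 to 8.05, and continuous ethanol arrays from 7.54 through 7.82 to 8.20. The lowest water array was again replicate 2 and the highest replicate 7, and the groups overlapped over most of their range. The difference was -0.06 for continuous ethanol minus water (interval -0.26 to 0.14; adjusted p = 0.795) and -0.08 for limited ethanol minus water (interval -0.28 to 0.12; adjusted p = 0.972). Limited minus continuous was -0.02 (interval -0.21 to 0.18; adjusted p = 0.975). Without water replicate 7 the differences from water were 0.02 for continuous and -0.00 for limited ethanol, and without the 5 arrays apart they were -0.17 and -0.15.

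Chrm4 is the Gi-coupled muscarinic receptor that striatum carries at high density, on medium spiny neurons of the direct pathway and on the cholinergic interneurons themselves. Water arrays ran from 9.08 through a median of 9.19 to 9.39, limited ethanol arrays from 8.86 through 9.09 to 9.44, and continuous ethanol arrays from 8.95 through 9.07 to 9.29. Of the 10 continuous ethanol arrays, 9 lay below the water mean of 9.20 ± 0.09 (SD, n = 9), while the ranges of the 2 groups overlapped. Continuous ethanol minus water was -0.11 ± 0.06 (SE; interval -0.23 to 0.01), with an unadjusted p of 0.0632 and an adjusted p of 0.336 by limma, the smallest among the members. It was -0.07 (adjusted p = 0.721) without the 5 arrays apart. Limited ethanol minus water was -0.07 (interval -0.19 to 0.05; adjusted p = 0.972), with 7 of 10 arrays below the water mean. Limited minus continuous was 0.04 (interval -0.07 to 0.16; adjusted p = 0.849).

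Chrm3 encodes a Gq-coupled muscarinic receptor. Its brighter probe set ran from 8.28 through a median of 9.31 to 9.61 in water, from 9.18 through 9.25 to 9.61 in limited ethanol and from 8.66 through 9.26 to 9.56 in continuous ethanol. The limited group lacked low arrays: its lowest was above the water mean of 9.12 ± 0.44 (SD, n = 9), so all 10 lay above that mean, yet the water median was higher than the limited median. The mean difference of limited ethanol minus water, 0.22 (interval -0.06 to 0.50; unadjusted p = 0.115; adjusted p = 0.972), was the largest of the tested members in any comparison. Without water replicate 9, the array at 8.28, it was 0.11, and with arrays weighted by their quality it was 0.07. Continuous ethanol minus water was 0.09 (interval -0.19 to 0.36; adjusted p = 0.778) and became -0.02 without that array. Limited minus continuous was 0.13 (interval -0.14 to 0.40; adjusted p = 0.769).

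The dimmer Chrm3 probe set, below the level filter, ran from 6.22 to 6.86 in water, from 6.42 to 6.89 in limited ethanol and from 6.42 to 6.81 in continuous ethanol. It followed the brighter one over the 29 arrays (Pearson r = 0.85 of the deviations from group means), and water replicate 9 was the lowest water array on both. Its difference of continuous ethanol minus water was 0.01 (interval -0.15 to 0.16) and of limited ethanol minus water 0.04 (interval -0.12 to 0.20). For limited minus continuous it was 0.04 (interval -0.12 to 0.19).

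Chrna4 and Chrnb2 encode the subunits that form the high-affinity nicotinic receptor common in brain, present on dopamine terminals of the striatum. Chrna4 ran from 7.21 through a median of 7.51 to 7.92 in water, from 7.37 through 7.60 to 8.15 in limited ethanol and from 7.42 through 7.64 to 7.84 in continuous ethanol. Its differences from water were 0.05 for continuous ethanol (interval -0.12 to 0.23; adjusted p = 0.779) and 0.05 for limited ethanol (interval -0.13 to 0.22; adjusted p = 0.98). Limited minus continuous was -0.01 (interval -0.18 to 0.16; adjusted p = 0.987), and the continuous arrays were the least spread of the 3 groups (SD 0.13, against 0.22 in water and 0.22 in limited ethanol), a difference in spread that was not tested. Chrnb2, below the filter, ran from 6.55 through a median of 6.69 to 6.90 in water, from 6.48 through 6.65 to 7.24 in limited ethanol and from 6.44 through 6.59 to 6.88 in continuous ethanol. Limited minus continuous was 0.13 (interval -0.02 to 0.28; unadjusted p = 0.0878), with an adjusted p of 0.566 in the fit without the filter. Continuous ethanol minus water was -0.10 (interval -0.26 to 0.05; adjusted p = 0.513), and 8 of 10 continuous arrays lay below the water mean. Limited ethanol minus water was 0.03 (interval -0.13 to 0.18; adjusted p = 0.993).

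Chrna7 encodes a subunit that forms calcium-permeable nicotinic channels without a partner subunit, found among other places on glutamate terminals. It ran from 7.29 through a median of 7.50 to 7.85 in water, from 7.33 through 7.58 to 7.81 in limited ethanol and from 7.15 through 7.44 to 7.83 in continuous ethanol. Continuous ethanol minus water was -0.06 (interval -0.23 to 0.11; adjusted p = 0.738), limited ethanol minus water was 0.05 (interval -0.12 to 0.22; adjusted p = 0.979), and limited minus continuous was 0.11 (interval -0.06 to 0.28; adjusted p = 0.672). Its level fell as the 3 prime minus 5 prime signal of control transcripts, a measure of RNA quality, rose (r = -0.53, permutation p adjusted over 99 relations = 0.0297; rho = -0.45, adjusted p = 0.0745). With that signal as a covariate the 3 differences were 0.00, -0.02 and -0.02.

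Chrm1, the Gq-coupled receptor of medium spiny and cortical neurons, ran from 6.62 through a median of 6.74 to 7.10 in water, from 6.47 through 6.66 to 7.16 in limited ethanol and from 6.39 through 6.77 to 6.96 in continuous ethanol. Chrm2, a Gi-coupled receptor that serves as an autoreceptor on cholinergic neurons, ran from 6.34 through 6.42 to 6.72, from 6.01 through 6.44 to 6.59 and from 6.25 through 6.48 to 6.56 in the same order of groups. Both are known striatal transcripts, and both read below the level filter here. Their differences of continuous ethanol minus water were -0.03 (interval -0.21 to 0.14; adjusted p = 0.876) and -0.01 (interval -0.13 to 0.10; adjusted p = 0.926). Limited ethanol minus water was -0.04 for Chrm1 (interval -0.21 to 0.14) and -0.06 for Chrm2 (interval -0.17 to 0.06), with adjusted p-values of 0.991 and 0.989. The values of limited minus continuous were -0.00 for Chrm1 (interval -0.17 to 0.17) and -0.04 for Chrm2 (interval -0.15 to 0.07).

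**Figure D2:**
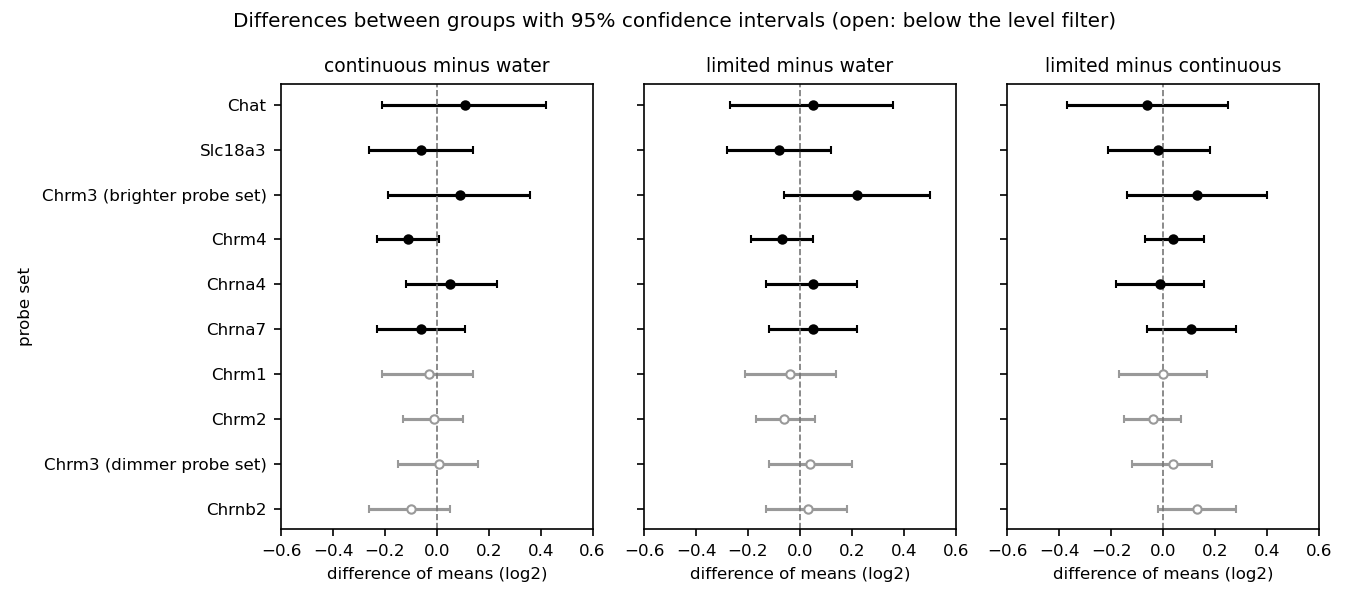
Difference between group means in log2 units (x axis) for each member probe set (y axis) in the 3 comparisons; points are limma estimates, bars their 95% confidence intervals, and open grey symbols are probe sets below the level filter, from the fit without it. Every interval includes 0, and the widest are those of Chat, such as -0.21 to 0.42 for continuous ethanol minus water.

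Members differed in how much they varied among arrays of the same group. The pooled SD within groups was 0.36 for Chat, more than for 97.7% of tested probe sets, 0.31 for the brighter Chrm3 probe set (96.8%) and 0.22 for Slc18a3 (91.9%). It was 0.19 for Chrna4 (87.4%) and 0.19 for Chrna7 (87%), and 0.13 for Chrm4 (58.8%). Among these 6 probe sets a difference between groups was thus estimated least precisely for Chat and most precisely for Chrm4. Some other cholinergic genes also varied widely: the pooled SD was 0.40 for Slc5a7 (98.5%), 0.42 for Ngfr (98.7%) and 0.36 for Slc10a4 (97.8%). Others varied less, with 0.24 for Zic4 (93.5%), 0.18 for Isl1 (85.2%), 0.18 for Tacr1 (83.2%) and 0.07 for Chkb (7.01%). These genes were picked after their values were seen.

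The spread of Chat was shared with Slc18a3 and Slc5a7, so between genes that make, load and recycle acetylcholine. Water replicate 2 was the lowest of its group for Chat (8.25), Slc18a3 (7.48) and Slc5a7 (8.69), and water replicate 7 the highest for all 3 (10.00, 8.49 and 10.80). Limited replicate 6 was the lowest of its group for all 3 (8.76, 7.41 and 9.50). Continuous replicate 7 was the highest of its group for all 3 (9.90, 8.20 and 10.78). The other ends matched only for Chat and Slc5a7: limited replicate 8 was highest and continuous replicate 3 lowest for both, whereas for Slc18a3 these places fell to limited replicate 1 and continuous replicate 4.

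Correlations were computed on deviations from the group means over the 29 arrays, for 6 pairs of genes, with 2-sided permutation tests of 100000 resamples. The smallest p these can give is 1e-05. For Chat and Slc5a7 Pearson's r was 0.94 and Spearman's rho 0.89 (p = 1e-05 for both; adjusted over the 6 pairs, 2e-05 and 6e-05). For Chat and Slc18a3 r was 0.82 and rho 0.72 (p = 1e-05 and 2e-05, adjusted 2e-05 and 6e-05). For Slc18a3 and Slc5a7 r was 0.77 and rho 0.72 (p = 1e-05 and 5e-05, adjusted 2e-05 and 0.0001). All 3 relations were present in each group by itself: r in water, limited and continuous ethanol was 0.97, 0.96 and 0.85 for Chat and Slc5a7, 0.84, 0.80 and 0.81 for Chat and Slc18a3, and 0.79, 0.90 and 0.67 for Slc18a3 and Slc5a7. Without the 2 arrays farthest from the median of the first gene of a pair, r was 0.90, 0.76 and 0.72 in the same order. With the 5 outlying arrays of the second component left out it was 0.90, 0.80 and 0.78. Arrays share their dissection, RNA and hybridisation in these correlations.

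**Figure D3:**
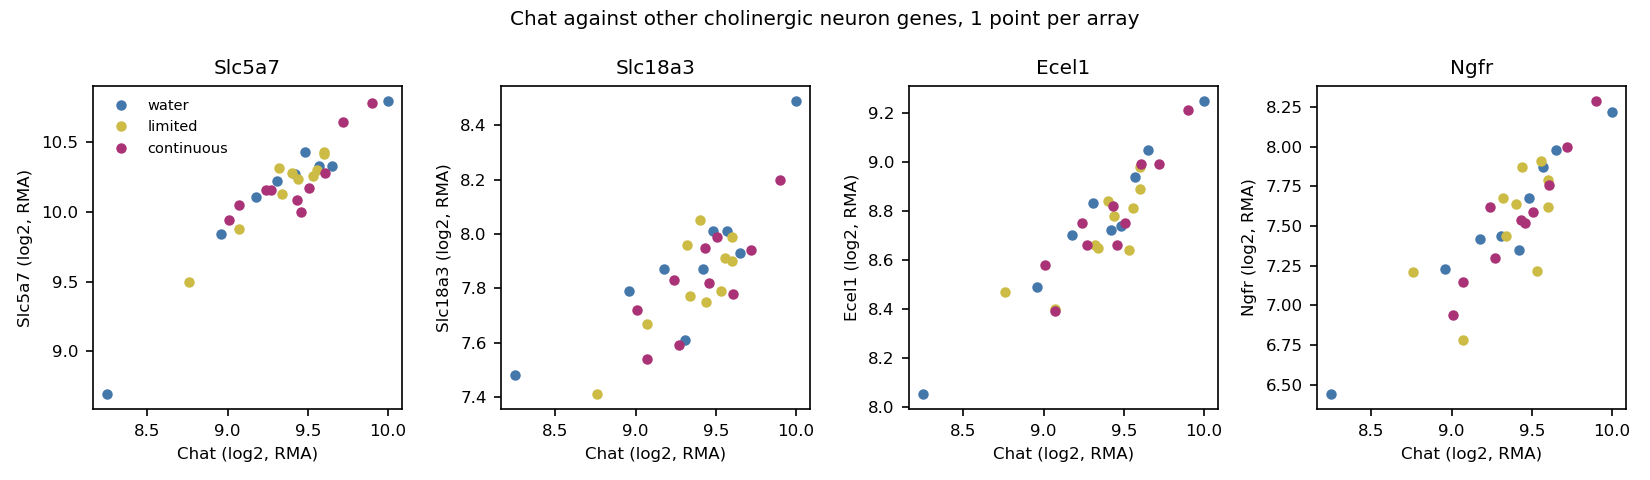
Log2 RMA expression of Chat (x axis) against Slc5a7, Slc18a3, Ecel1 and Ngfr (y axes), 1 point for each of the 29 arrays, coloured by group. In every panel the groups are mixed along 1 rising line, from water replicate 2 at a Chat level of 8.25 to water replicate 7 at 10.00.

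Of 3 pairs of receptor genes, 1 passed the same test. For Chrm1 and Chrm4, both receptors of medium spiny neurons, r was 0.54 (permutation p = 0.00256, adjusted 0.00384) and rho 0.45 (p = 0.0144, adjusted 0.0217). That relation rested in part on few arrays: without the 2 farthest arrays, limited replicate 6 and water replicate 5, r was 0.41 (adjusted p = 0.0503), and without the 5 arrays apart it was 0.36 (adjusted p = 0.11). Chrna4 and Chrnb2, partners in 1 receptor, had r of 0.17 and rho of 0.25 (p = 0.376 and 0.186, adjusted 0.376 and 0.188), with Chrnb2 below the level filter. For Chrm1 and Chrm3 r was 0.21 and rho 0.25 (p = 0.264 and 0.188, adjusted 0.316 and 0.188). Chat had r of -0.56 with Chrna4 and of 0.41 with Chrm2, pairs that were not tested.

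**Figure D4:**
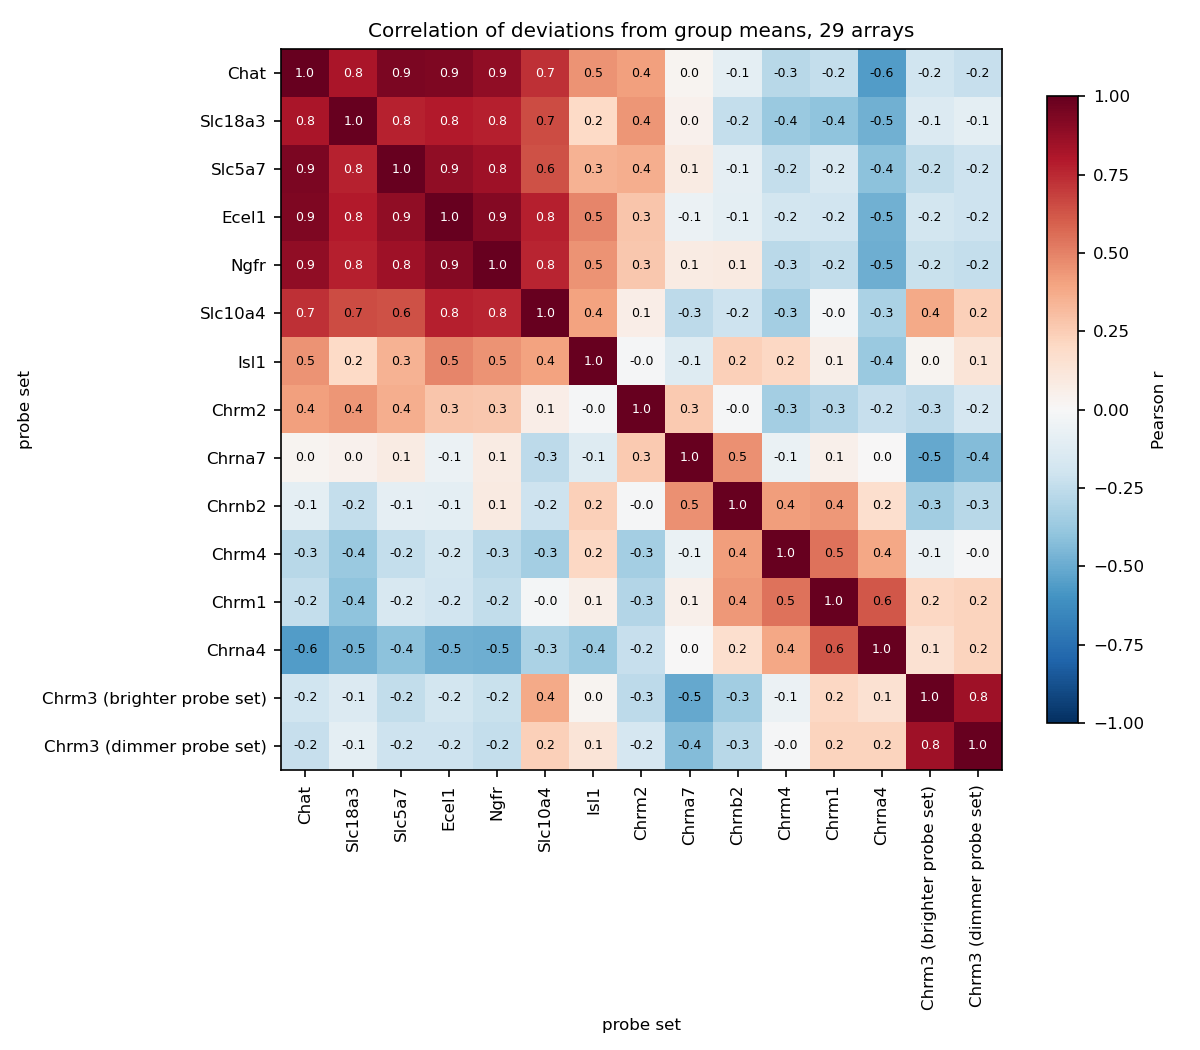
Pearson r of deviations from group means over 29 arrays between the member probe sets and further genes of cholinergic neurons, with red for positive and blue for negative values. Chat, Slc18a3, Slc5a7, Ecel1, Ngfr and Slc10a4 form 1 red block, while Chrna4 is blue against Chat (-0.56). Isl1 is paler, with 0.45 for Chat, 0.20 for Slc18a3 and 0.35 for Slc5a7. Ngfr, Slc10a4 and Isl1 were picked after their values were seen, and Ecel1 is among the genes most like Chat, so the block partly reflects that choice.

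Of all 15761 tested probe sets with 1 gene symbol, the 3 most like Chat over the 29 arrays were Slc5a7 (r = 0.94), Ecel1 (0.93), a peptidase of the endothelin-converting family, and Igsf1 (0.89), an immunoglobulin-domain membrane protein. Ngfr, the low-affinity neurotrophin receptor known from basal forebrain cholinergic neurons, was the 6th (0.89) and Slc18a3 the 17th (0.82). Slc10a4, a vesicular transporter of cholinergic and monoamine neurons, was the 48th (0.73). Other genes listed for cholinergic neuron identity were less like Chat: Gbx2 ranked 70 (0.71), Zic4 402 (0.51), Tacr1 457 (0.50) and Isl1, a homeodomain factor, 663 (0.45). The ranks from Ngfr onward were looked up after their values were seen. Most like Slc18a3 were Acly (0.86), which makes the cytosolic acetyl-CoA that Chat uses, Gpx3 (0.84), a secreted glutathione peroxidase, and Lypd6b (0.83), of the Ly6 family of nicotinic receptor modulators.

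The receptors had other neighbours. Chrm4 was most like Usp2, a deubiquitinase (0.83), Klhdc3 (0.81) and Izumo4 (0.81), and the brighter Chrm3 probe set was most like Enc1, an actin-binding protein of neurons (0.89), Anp32a (0.88) and Pafah1b1 (0.87), a dynein regulator. Chrna4 was most like Bok, of the Bcl2 family (0.85), Rasal1, a Ras GTPase activator (0.82), and Syn1, the synaptic vesicle protein synapsin (0.81). Chrna7 was most like Drp2, a dystrophin relative (0.75), Gcnt4 (0.71) and Them7 (0.71). Among the dim probe sets, Chrm1 was most like Elmo2 (0.73), Aagab (0.71) and Rundc3a (0.71), Chrm2 like Ngb, the brain globin (0.76), Gaa (0.71) and Fam221a (0.71), and Chrnb2 like Rbm7 (0.83), Apoh (0.80) and Tatdn3 (0.78). Apoh is a liver gene from the guide to dim values. These are the highest of many correlations and are descriptions, with no test.

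Marker lists of the cells that a punch of accumbens shell could hold were set against the members as mean deviations per array, an addition made after seeing the data. Over 9 members and 11 measures, 99 relations were computed and 13 had a Pearson p adjusted over the 99 under 0.05. Chat fell as the cortical list rose (r = -0.66, adjusted permutation p = 0.00148; rho = -0.74, adjusted p = 0.00099). That value was -0.72 without the 2 farthest arrays and -0.75 without the 5 arrays apart. Within the list 5 of 6 genes were negative with Chat, among them Nrn1 (-0.67), Slc17a7, the cortical glutamate transporter (-0.58), and Neurod6 (-0.58), while Lamp5 was positive (0.36). The score of the cortical list ran from -0.24 to 0.12 in water, -0.17 to 0.27 in limited ethanol and -0.21 to 0.22 in continuous ethanol.

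Chat rose with the list of septal and pallidal neurons (r = 0.66, adjusted p = 0.00247; rho = 0.46, adjusted p = 0.0671), less so without the 2 farthest arrays (0.45) and without the 5 arrays apart (0.48). Of its 6 genes 4 had a probe set and all 4 were positive with Chat: Slc17a6, a glutamate transporter of subcortical neurons (0.68), Trh (0.36), Penk (0.23), which the medium spiny list shares, and Zic1 (0.11). Trh, with a mean of 6.19, lay below the level filter. Gbx1 and Lhx8, which mark forebrain cholinergic lineages more directly, had no probe set under those symbols. The score ran from -0.35 to 0.19 in water, -0.15 to 0.12 in limited ethanol and -0.23 to 0.10 in continuous ethanol. Slc18a3 gave r of -0.55 with the cortical list (adjusted p = 0.0183; rho = -0.54, adjusted p = 0.0277) and of 0.62 with the septal and pallidal list (adjusted p = 0.00614; rho = 0.53, adjusted p = 0.0277). In the same order r for Slc18a3 was -0.51 and 0.44 without the 2 farthest arrays, and -0.57 and 0.43 without the 5 arrays apart. Other lists followed Chat as strongly once arrays were left out. Without the 5 arrays apart r for Chat was -0.63 with GABA interneurons, 0.57 with microglia, 0.55 with astrocytes and 0.51 with oligodendrocytes. Without the 2 farthest arrays it was -0.60, 0.57, 0.55 and 0.52 in the same order. Over all 29 arrays it was -0.32, 0.24, 0.42 and 0.43. For Slc18a3 without the 5 arrays apart r was -0.65, 0.45, 0.58 and 0.42. The part that dissection or cell makeup had in the spread of Chat was not tested.

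Chrna4 went the other way from Chat. It rose with the cortical list (r = 0.79, adjusted p = 0.00099; rho = 0.79, adjusted p = 0.00099), and r was 0.74 without the 2 farthest arrays and 0.80 without the 5 arrays apart. It fell as the oligodendrocyte list rose (r = -0.59, adjusted p = 0.00718; rho = -0.64, adjusted p = 0.00594). Chrm1 also rose with the cortical list (r = 0.60, adjusted p = 0.00718; rho = 0.61, adjusted p = 0.0135) and with that of GABA interneurons (r = 0.52, adjusted p = 0.0319; rho = 0.59, adjusted p = 0.0137).

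Chrm4 fell as the septal and pallidal list rose (r = -0.61, adjusted p = 0.00643; rho = -0.59, adjusted p = 0.0137) and rose with the medium spiny list (r = 0.49, adjusted p = 0.0493; rho = 0.48, adjusted p = 0.055). Without the 2 farthest arrays the latter r was 0.38. Chrna7 rose with the dopamine neuron list (r = 0.66, adjusted p = 0.00165; rho = 0.60, adjusted p = 0.0135), of which 3 of 4 genes passed the level filter and whose cell bodies lie outside the accumbens. The brighter Chrm3 probe set gave r of -0.54 with the same list (adjusted p = 0.0246), but rho was -0.34 (adjusted p = 0.224). That r was -0.29 without the 2 farthest arrays and -0.58 without the arrays apart on the second principal component. The relation thus depended on which arrays were left out. Without the 2 farthest arrays r for this probe set was 0.67 with the cortical list, against 0.22 over all arrays. With oligodendrocytes it was -0.55, against -0.22. Without the arrays apart these r values were 0.11 and -0.14. Chrm2 and Chrnb2 had no relation past the threshold. By Spearman's rho alone, relations past it also linked Chat with oligodendrocytes (0.51, adjusted p = 0.0378), the brighter Chrm3 probe set with astrocytes (-0.53, adjusted p = 0.0277) and Chrna4 with GABA interneurons (0.56), astrocytes (-0.56) and microglia (-0.53).

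**Figure D5:**
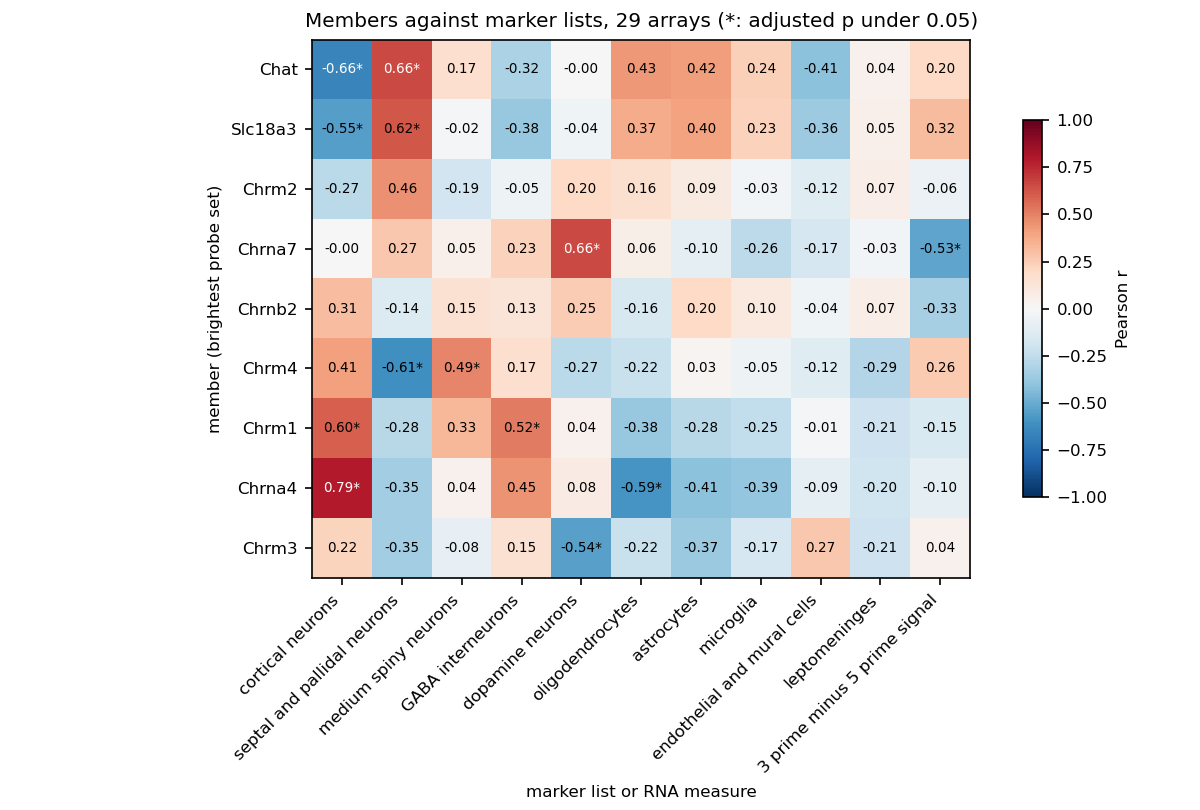
Pearson r over 29 arrays between each member, by its brightest probe set (rows), and the mean deviation of each marker list or the 3 prime minus 5 prime signal (columns); asterisks mark an adjusted permutation p under 0.05. Chat and Slc18a3 are negative with cortical markers (-0.66 and -0.55), where Chrna4 and Chrm1 are positive (0.79 and 0.60).

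Around the members, a list of 52 other cholinergic genes was read, of which 46 had a probe set and 32 passed the level filter. Limma called 0 of 32 in each of the 3 comparisons. At an unadjusted p under 0.05 there were 4 for continuous ethanol against water, 1 for limited ethanol against water and 3 for limited against continuous. Over all tested probe sets the shares in the same order were 16.1%, 4.44% and 9.31%. Called after adjustment were 0.152%, 0% and 0.00460% of all. The median differences of the list were -0.00, 0.01 and 0.00. Only 3 of the 14 other receptor subunits passed the filter, against 6 of 6 chaperones and modulators and 10 of 11 genes of muscarinic signalling. Slc5a7, the choline transporter, differed by 0.12 between continuous ethanol and water (interval -0.24 to 0.47; adjusted p = 0.765) and by 0.07 between limited ethanol and water (interval -0.29 to 0.42; adjusted p = 0.985). Without water replicate 2 these differences were -0.06 and -0.11, and without the 5 arrays apart they were -0.07 and -0.05.

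The 6 of smallest p over the 3 groups included 3 that act on nicotinic receptors directly. Rapsn, which clusters the muscle receptor and read close above the level filter, ran from 6.76 through a median of 6.97 to 7.34 in water and from 6.65 through 6.77 to 6.99 in continuous ethanol, a difference of -0.22 ± 0.07 (SE; interval -0.36 to -0.08; unadjusted p = 0.00328; adjusted p = 0.158) with 10 of 10 arrays below the water mean. Lynx1, a membrane-anchored protein that dampens nicotinic receptors, ran from 11.85 through 11.93 to 12.14 in water and from 11.69 through 11.81 to 11.98 in continuous ethanol, a difference of -0.12 (interval -0.22 to -0.03; unadjusted p = 0.0107; adjusted p = 0.202). Water and continuous ethanol arrays overlapped for each gene. In limited ethanol the medians were 6.97 for Rapsn and 11.92 for Lynx1, and limited ethanol minus water was -0.07 and -0.01. Limited minus continuous was 0.15 for Rapsn (interval 0.01 to 0.28, unadjusted p = 0.0338, adjusted p = 0.529 by limma). For Lynx1 it was 0.11 (interval 0.02 to 0.20, unadjusted p = 0.0161, adjusted p = 0.525 by limma). Tmem35a, the chaperone NACHO needed to assemble neuronal nicotinic receptors, ran from 11.67 through 11.92 to 12.08 in water, from 11.60 through 11.94 to 12.04 in limited ethanol and from 11.92 through 12.02 to 12.21 in continuous ethanol. It differed by 0.13 between continuous ethanol and water (interval 0.01 to 0.25; unadjusted p = 0.0317; adjusted p = 0.266), the water mean being exceeded by 10 of 10 arrays, and by -0.16 between limited and continuous ethanol (interval -0.28 to -0.04; unadjusted p = 0.00882; adjusted p = 0.525). Without the 5 arrays apart, continuous ethanol minus water was -0.13 for Rapsn, -0.10 for Lynx1 and 0.06 for Tmem35a. Under the same setting limited minus continuous was 0.11 for Rapsn, 0.07 for Lynx1 and -0.10 for Tmem35a.

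The other 3 were Chrng, Gnai1 and Gnao1. Chrng, the fetal muscle receptor subunit, differed by -0.14 between limited ethanol and water (interval -0.25 to -0.03; unadjusted p = 0.0162; adjusted p = 0.972), and by -0.09 without the 5 arrays apart. Gnai1 and Gnao1 encode alpha subunits of the G proteins through which Chrm2 and Chrm4 act. Gnai1 differed by 0.16 between continuous ethanol and water (interval 0.03 to 0.29; unadjusted p = 0.0149; adjusted p = 0.217). Between limited ethanol and water it differed by 0.11 (interval -0.01 to 0.24, adjusted p = 0.972 by limma). Gnao1 differed by 0.18 between limited ethanol and water (interval -0.00 to 0.37; unadjusted p = 0.0541; adjusted p = 0.972), and by 0.10 without water replicate 9, its lowest water array at 10.35. Without the 5 arrays apart, Gnai1 differed by 0.11 between continuous ethanol and water and Gnao1 by 0.20 between limited ethanol and water. The intervals cover single comparisons and are not adjusted for the number of probe sets. None of the 6 passed after adjustment over all tested probe sets.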

How the data were processed

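Total RNA of accumbens shell was extracted with Trizol and RNeasy columns and 2 ug made into biotinylated cRNA, per the labels' protocols. What the authors deposited is RMA output in log2 units, as the submitters' processing notes name RMA. The base of the logarithm was inferred from the range, 4.04 to 16.04. The RMA software, scan dates and batches are not given in the sources used here. Such normalization hides a change common to all transcripts.

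The 31099 probe sets included 57 controls, which were not tested. Of the others, 20826 had 1 symbol, 436 several and 9780 none. All 29 arrays entered 1 model with group as the only factor (limma 3.58.1, statmod 1.5.0, R 4.3.3; lmFit and eBayes), two-sided, with Benjamini-Hochberg adjustment over 21731 probe sets and a threshold of 0.05. Adjusted p-values are limma's unless a permutation test is named. Permutation tests used numpy 2.4.6 and scipy 1.17.1. The scripts for the model and the correlations were tested on simulated data. For the model, recovery was required only of the largest planted change, which was above every member difference here. The check therefore does not show that changes as small as those of the members would be found. The number of arrays limits the precision.

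The members and lists were chosen with earlier results of these data known. Named genes were all member probe sets, the 6 other cholinergic genes of smallest F-test p, and the 3 genes most like each member. Ngfr, Slc10a4, Isl1, Zic4, Gbx2, Tacr1 and Chkb were named after their values were seen.

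Alternatives were no level filter, a filter on the dimmest 50 percent, quantile normalization again, median centring, a trended and robust prior, array weights, a replicate block, a 3 prime to 5 prime covariate, leaving out each array, a fit of the 2 groups compared and, for correlations, the mean of a gene's probe sets. Leaving out the 5 arrays apart was added after seeing the data. Replicate numbers were not used as pairs in the main model. The correlation of deviations between same-numbered arrays ran from -0.243 to 0.343. It was over 0.1 in 5 of 9 pairs of water with limited ethanol, 5 of 9 of water with continuous ethanol and 2 of 10 of limited with continuous ethanol. These values cannot show whether the numbers mark shared handling.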

Additional observations from a re-analysis of the deposited data

Results flagged for a closer look

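Among 60 sets of values (a probe set in 1 group) examined for a single array far from the others, 4 had one; chance gives about 1 in 20. Chrm2 in limited replicate 6 read 6.01, with the nearest array at 6.36, and lay below the level filter in all groups. Slc5a7 in water replicate 2 read 8.69, with the nearest at 9.84; this array was also the lowest water array for Chat and Slc18a3. Rapsn in limited replicate 8 read 6.51, with the nearest at 6.84. Gnao1 in continuous replicate 4 read 10.74, with the nearest at 11.06. Limited replicate 6 and water replicate 2 are among the 5 arrays apart on the second principal component.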

How the results depend on the processing

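The counts of member probe sets and of other cholinergic genes past the threshold were 0 in the main analysis and 0 under each alternative run, including the replicate block, where member calls were 0 in all 3 comparisons. Over all probe sets, calls between continuous ethanol and water were 33, with 12 without the 5 arrays apart, and 18 to 94 when 1 array was left out (18 without water replicate 5, 94 without water replicate 4). Between limited and continuous ethanol it was 1, with 0 to 3 when 1 array was left out. The 4 probe sets below the level filter were examined only in the fit without it. For the 6 tested member probe sets, 18 changes were recomputed under 39 settings. The sign turned in 19 of 522 values when 1 array was left out and in 13 of 171 values under the other 10 settings, in 12 of the 18 changes together. The smallest adjusted p was 0.241, and the cause of the turns was not tested. With array weights, Chrm3 was -0.01 for continuous ethanol minus water, Chrna4 -0.01 for limited ethanol minus water and Slc18a3 0.03 for limited minus continuous; Chrm3 for limited ethanol minus water fell from 0.22 to 0.07. With the 3 prime to 5 prime covariate, Chrna7 was 0.00, -0.02 and -0.02 in the 3 comparisons, and limited minus continuous was 0.03 for Chat and 0.08 for Slc18a3. Without the 5 arrays apart, Chat was -0.01 and -0.02 against water for continuous and limited ethanol, Chrna4 -0.05 for limited ethanol minus water, and limited minus continuous was -0.00 for Chrm4 and 0.02 for Slc18a3; Slc18a3 moved to -0.17 and -0.15 against water and Chrm4 to -0.07 for continuous ethanol minus water. Leaving out 1 array at a time, continuous ethanol minus water ran from -0.02 to 0.15 for Chrm3 (-0.02 without water replicate 9), from -0.02 to 0.19 for Chat and from -0.11 to 0.02 for Slc18a3. Limited ethanol minus water ran from -0.08 to 0.13 for Chat, from -0.13 to -0.00 for Slc18a3 and from -0.01 to 0.09 for Chrna4. Limited minus continuous ran from -0.11 to 0.01 for Chat, -0.05 to 0.03 for Slc18a3 and -0.06 to 0.02 for Chrna4. The correlation of Chrm1 with Chrm4 lost its call without the 2 farthest arrays (0.41) and without the 5 arrays apart (0.36); the calls of the other 5 pairs did not change under the alternatives run. The intervals, for Chat -0.21 to 0.42 for continuous ethanol minus water, limit what size of difference these arrays could show.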
